A study of Mus musculus with 12 samples.

Results

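Neuronal migration and reelin response genes were examined in the neocortex of mouse embryos at E14.5, as a set of 10 genes chosen by name for their known roles (Dab1, Lrp8, Vldlr, Dcx, Dclk1, Rnd2, Rnd3, Cdk5, Cdk5r1 and Pafah1b1) among 14860 genes measured. The choice of these genes was made with earlier results of these data known, so counts of members beside all genes are descriptive. All 10 were present on the array, and none was left out for a low value. Expression was measured as 1 RNA sample per embryo on Affymetrix Mouse Exon 1.0 ST arrays, from 3 control embryos, 4 embryos of Tbr1 KO, 2 of Tbr2 cKO and 3 of Tbr1/2 dKO. Controls were labelled as wild type, and in the study's methods they had no Tbr1 mutation and no recombined Tbr2. Tbr1 KO carried the germline loss of Tbr1. Tbr2 cKO was labelled as a conditional knockout of Tbr2 (the gene symbol is Eomes), and the methods cite earlier work for how it was made. In Tbr1/2 dKO the conditional allele (Tbr2 2F/2F) was deleted by Nes11Cre, a Cre transgene active in neural progenitors. Both copies of Tbr1 were also lost there (Tbr1-/-). The neocortex is a mixture of cells, so that fewer cells of a type and less RNA per cell cannot be told apart in any value given here.

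Reelin is a secreted protein made by Cajal-Retzius cells at the surface of the cortex. It binds the lipoprotein receptors encoded by Lrp8 (ApoER2) and Vldlr, which leads Src-family kinases to phosphorylate the adaptor Dab1 inside migrating neurons, and mice without these components form inverted or disordered cortical layers. Migration also needs the microtubule proteins Dcx and Dclk1, the dynein regulator Lis1 (Pafah1b1), the kinase Cdk5 with its activator p35 (Cdk5r1), and the proteins Rnd2 and Rnd3, which control the actin cytoskeleton at different steps of the journey from the ventricular zone to the cortical plate.

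Each targeted gene was below every control in the genotypes labelled as lacking it. Tbr1 was also below every control in Tbr2 cKO, where it is not labelled as mutated. That difference was -0.56 to -0.38 over 23 alternative fits, of which 4 called it. The paper reports Tbr1 as lower in Tbr2 cKO cortex, both in these same arrays and in an earlier array experiment. Only the earlier experiment is separate from the values given here. Tbr1 was 10.88 to 11.01 in control, 9.76 to 10.06 in Tbr1 KO, 10.39 to 10.57 in Tbr2 cKO and 9.52 to 9.69 in Tbr1/2 dKO, and Eomes was 11.70 to 12.13, 11.56 to 12.14, 8.202 to 9.185 and 8.37 to 8.65 (log2 values). The sources used here do not say where the array probes lie relative to the deleted exons. Array medians lay between 8.15 and 8.25, and arrays correlated with the others of their genotype at a mean of 0.992 to 0.995 across genes, which are not independent replicates. By 2 Y-linked genes, whose mean was 10.04 to 10.44 or 5.02 to 5.35, every genotype held embryos of both sexes. The high arrays were replicates 1 and 3 of control, 1 and 2 of Tbr1 KO and of Tbr1/2 dKO, and 1 of Tbr2 cKO. Pan-neuronal markers (10 of 11 listed were measured) had a mean of 11.45 to 12.03 in the 12 arrays, which fits the labelled tissue. Replicate 2 of Tbr1/2 dKO was the lowest of its 3 embryos in 10 of 10 members, beside 31.0% of all genes. The margin was small in some, such as Rnd3 (11.349 against 11.361 and 11.361) and Pafah1b1 (10.904 against 10.943 and 10.927). The members share the same arrays, so they are not separate observations of it. The array of replicate 2 had the lowest weight in limma (0.42, the others being 0.48 to 1.70). Without it, Lrp8 differed from control by -0.45 (limma adjusted p = 0.00257) and Rnd3 by 0.46 (adjusted p = 0.0038) in Tbr1/2 dKO.

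Promoter sequences are shown for the genes that differed most in Tbr1/2 dKO, namely the reelin receptors and adaptor on one side and Rnd3 on the other. The windows span 250 bases before to 50 bases after an annotated start (RefSeq, GRCm38.p6), read 5′ to 3′ on the gene's strand, with CpG dinucleotides in capitals. Where a gene had several windows, the one nearest to the annotated 5′ end of the gene is printed. Lrp8 is at chr4:107802635-107802934 (plus strand), Dab1 at chr4:103619250-103619549 (plus strand), Vldlr at chr19:27216234-27216533 (plus strand) and Rnd3 at chr2:51149062-51149361 (minus strand).
Lrp8: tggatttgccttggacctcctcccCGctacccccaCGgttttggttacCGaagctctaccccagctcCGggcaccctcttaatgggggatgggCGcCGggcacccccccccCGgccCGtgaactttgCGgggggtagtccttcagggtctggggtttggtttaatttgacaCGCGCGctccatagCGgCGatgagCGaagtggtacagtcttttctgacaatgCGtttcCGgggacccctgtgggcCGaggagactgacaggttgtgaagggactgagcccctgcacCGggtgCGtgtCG
Dab1: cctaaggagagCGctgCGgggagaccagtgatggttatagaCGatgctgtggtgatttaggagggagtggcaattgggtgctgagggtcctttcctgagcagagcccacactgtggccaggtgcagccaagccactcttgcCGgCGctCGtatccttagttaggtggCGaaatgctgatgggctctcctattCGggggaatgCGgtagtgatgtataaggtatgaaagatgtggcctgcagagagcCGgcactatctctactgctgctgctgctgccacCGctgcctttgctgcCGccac
Vldlr: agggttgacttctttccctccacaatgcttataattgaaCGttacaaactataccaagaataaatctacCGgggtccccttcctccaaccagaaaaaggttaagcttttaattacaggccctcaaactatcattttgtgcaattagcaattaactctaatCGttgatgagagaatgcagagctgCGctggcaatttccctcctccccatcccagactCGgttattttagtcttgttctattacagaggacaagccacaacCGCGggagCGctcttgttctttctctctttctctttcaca
Rnd3: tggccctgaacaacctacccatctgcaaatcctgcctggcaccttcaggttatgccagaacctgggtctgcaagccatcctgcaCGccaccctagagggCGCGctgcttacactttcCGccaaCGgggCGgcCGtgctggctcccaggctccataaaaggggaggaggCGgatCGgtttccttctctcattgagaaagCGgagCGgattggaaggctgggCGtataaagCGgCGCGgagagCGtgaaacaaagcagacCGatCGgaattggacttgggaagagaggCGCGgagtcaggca
These windows held 21 CpG dinucleotides in Lrp8, 12 in Dab1, 8 in Vldlr and 20 in Rnd3, beside a median of 7 over all 32851 windows of the same length. Their GC content was 62.7% in Lrp8, 57.3% in Dab1, 43.0% in Vldlr and 59.7% in Rnd3, beside a median of 52.7%. Other windows of these genes differed. That of Dab1 at chr4:104367288-104367587 held 46 CpG (77.3% GC), and that of Vldlr at chr19:27216770-27217069 held 23 (68.0% GC). The other windows of Lrp8 held 5 and 4 CpG (55.0% and 54.0% GC). The annotated start on which the printed Lrp8 window is placed lies 685 bases from the annotated 5′ end of the gene. The T-box half-site AGGTGTGA (TCACACCT on the other strand) was in 0 of the 13 windows of the 7 genes that matched the table, and in 1.28% of all windows. Its shorter core GGTGTG, which lies within that half-site and was searched on both strands, was in 1 of the 13, a window of Dclk1, and in 19.0% of all windows. Rnd2, Cdk5 and Cdk5r1 had no window in the table.

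Against control, loss of both factors changed 2 of the 10 genes: Lrp8 fell and Rnd3 rose in Tbr1/2 dKO, while no member passed the test in Tbr1 KO or in Tbr2 cKO. The test was limma across all 14860 genes with 1 mean per genotype, and a call needed a Benjamini-Hochberg p, adjusted over all of them, of less than 0.05. Among all genes, Tbr1/2 dKO had 3.11% called (1.20% higher and 1.90% lower), Tbr1 KO 0.619% and Tbr2 cKO 0.653%. At an unadjusted limma p under 0.05 the members numbered 2 for Tbr1 KO, 3 for Tbr2 cKO and 4 for Tbr1/2 dKO, beside 6.51%, 10% (1493 of 14860) and 12.3% of all genes. The median log2 fold change of the 10 members was -0.01 for Tbr1 KO, -0.05 for Tbr2 cKO and -0.09 for Tbr1/2 dKO, beside -0.01, -0.01 and 0.01 over all genes.

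**Figure D1:**
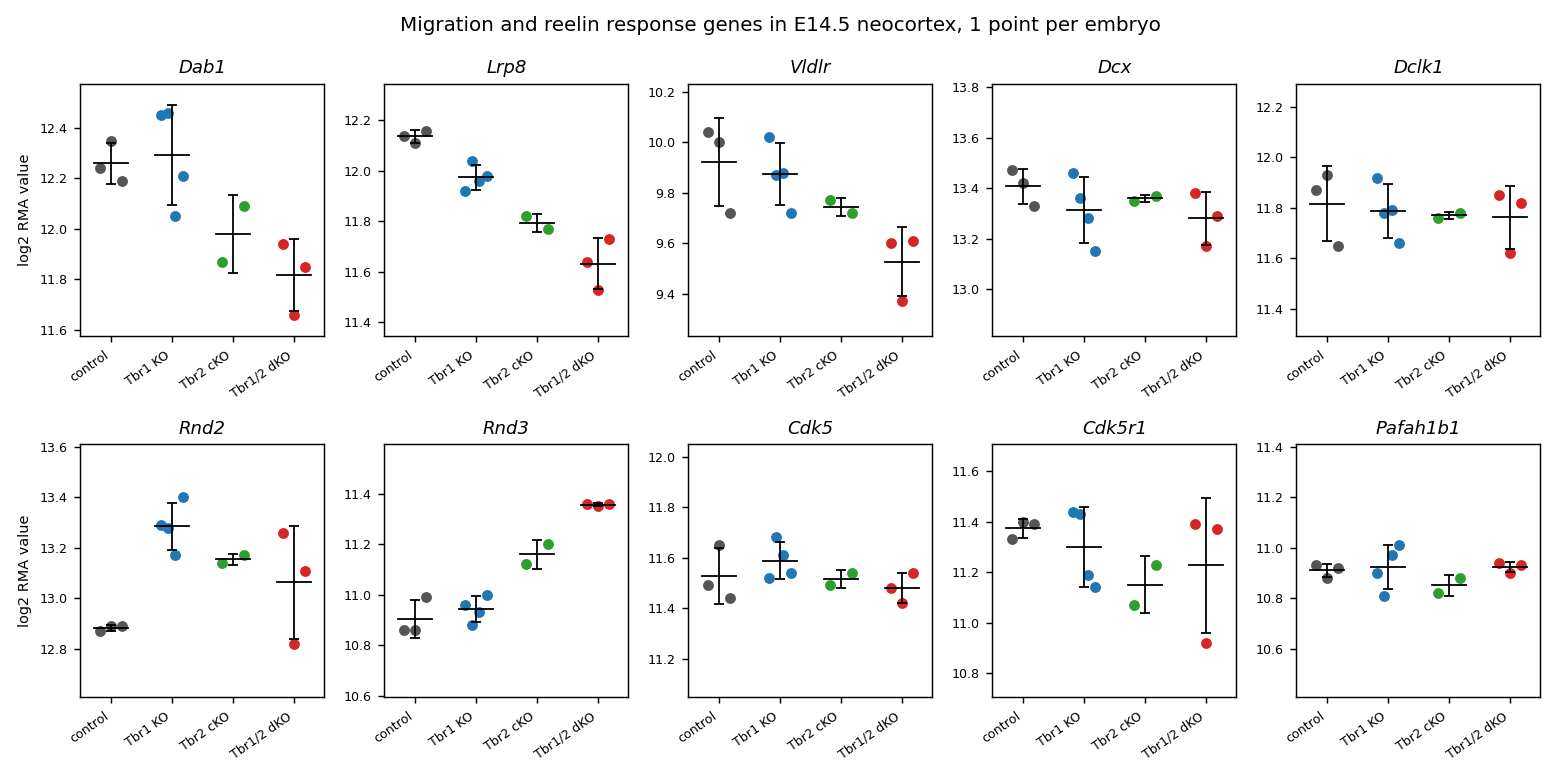
Log2 RMA value (y axis) of each of the 10 genes in each embryo (points) by genotype (x axis); the bar is the mean and the whiskers are 1 SD. All panels span the same range of the y axis, which does not start at 0. Lrp8 runs from 12.11 to 12.16 in control to 11.53 to 11.73 in Tbr1/2 dKO, and Rnd3 from 10.86 to 10.99 to 11.35 to 11.36.

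Lrp8 encodes the reelin receptor ApoER2. Its log2 values were 12.14, 12.11 and 12.16 in control, 11.92, 12.04, 11.96 and 11.98 in Tbr1 KO, 11.82 and 11.77 in Tbr2 cKO, and 11.64, 11.53 and 11.73 in Tbr1/2 dKO. Every mutant embryo was below every control, and the 4 genotypes did not overlap in the order control, Tbr1 KO, Tbr2 cKO, Tbr1/2 dKO. Lrp8 fell by 0.50 (log2) in the double mutant, with a standard error of 0.06 (limma adjusted p = 0.000938), a level 1.42-fold below control, and it was lower in 3 of 3 embryos. This call was made under all 23 alternative fits, with adjusted p between 0.00018 and 0.0236. In Tbr2 cKO the difference was -0.34 (standard error 0.07, adjusted p = 0.0554, between 0.0105 and 0.286 over the alternatives, of which 5 called it), and in Tbr1 KO it was -0.16 (standard error 0.06, adjusted p = 0.552). The step from Tbr1 KO to Tbr1/2 dKO, which is the loss of Tbr2 in embryos already without Tbr1, was -0.34 (adjusted p = 0.0161), and without Tbr1 KO replicate 2 this was 0.0513. The same step fitted on those 2 genotypes alone gave an adjusted p of 0.110. Deviations of same-numbered embryos of these genotypes from their genotype's mean correlated weakly (0.18, 0.19 and 0.38). Different-numbered embryos were not compared, so whether the numbers mark pairs is not known. With the number as a replicate block the step in Lrp8 was -0.34 and was not called (limma adjusted p = 0.0956). Same-numbered embryos of these 2 genotypes were also of the same sex by the Y-linked genes. With the Y-linked genes as a covariate the step was -0.34 (limma adjusted p = 0.0288). Over the 12 arrays, which share the genotype differences, Lrp8 had its highest Pearson correlations with Galnt17 (0.98), Disp3 (0.98) and Slc17a7 (0.97), the last being a vesicular glutamate transporter of excitatory neurons.

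Vldlr, the second reelin receptor, was lower in Tbr1/2 dKO than in any control but was not called. Its values were 10.037, 10.002 and 9.717 in control, 10.02, 9.87, 9.88 and 9.72 in Tbr1 KO, 9.77 and 9.72 in Tbr2 cKO, and 9.60, 9.37 and 9.61 in Tbr1/2 dKO. Control replicate 3 was the lowest control, level with 1 embryo of each single mutant, and the single mutants overlapped control. The difference in Tbr1/2 dKO was -0.39 (standard error 0.10, limma adjusted p = 0.0759, between 0.0202 and 0.271 over the alternatives). Without control replicate 3 it was called, with adjusted p = 0.0279.

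Dab1, the intracellular adaptor that both receptors share, had values of 12.24, 12.35 and 12.19 in control, 12.45, 12.46, 12.05 and 12.21 in Tbr1 KO, 11.87 and 12.09 in Tbr2 cKO, and 11.94, 11.66 and 11.85 in Tbr1/2 dKO. Tbr1 KO spanned the controls, and every embryo without Tbr2 was below all controls. The difference from control was -0.44 in Tbr1/2 dKO (standard error 0.12, limma adjusted p = 0.0805, between 0.0436 and 0.265 over the alternatives), -0.28 in Tbr2 cKO (adjusted p = 0.518) and 0.03 in Tbr1 KO (adjusted p = 0.984). Dab1 was called in Tbr1/2 dKO without Tbr1 KO replicate 3, at an adjusted p of 0.0489. Dab1 is the only member with a second probeset on the array, and there the same 3 differences were -0.35, -0.22 and 0.10.

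Rnd3 encodes a regulator of the actin cytoskeleton in the migrating neuron. Its values were 10.86, 10.86 and 10.99 in control, 10.956, 10.879, 10.933 and 10.996 in Tbr1 KO, 11.12 and 11.20 in Tbr2 cKO, and 11.36, 11.35 and 11.36 in Tbr1/2 dKO. Tbr1 KO overlapped the controls, Tbr2 cKO lay above both, and Tbr1/2 dKO lay above all other embryos. Rnd3 rose by 0.45 in Tbr1/2 dKO (standard error 0.06, limma adjusted p = 0.00107, 1.37-fold), in 3 of 3 embryos, and was called under all 23 alternative fits (adjusted p between 0.00024 and 0.0231). The difference was 0.25 in Tbr2 cKO (standard error 0.06, adjusted p = 0.145) and 0.03 in Tbr1 KO (standard error 0.05, adjusted p = 0.97). Rnd3 was also higher in Tbr1/2 dKO than in Tbr1 KO, by 0.42 (adjusted p = 0.00292), a call made under all 23 alternative fits. Its highest correlations over the 12 arrays were with Tnk2 (0.98), Ptbp3 (0.96) and Rbms1 (0.96).

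Rnd2, which acts in the multipolar phase of migration and is a known target of Neurog2 in the mouse cortex, had its highest mean in Tbr1 KO. Its values were 12.87, 12.89 and 12.89 in control, 13.29, 13.28, 13.17 and 13.40 in Tbr1 KO, 13.14 and 13.17 in Tbr2 cKO, and 13.26, 12.82 and 13.11 in Tbr1/2 dKO. All 6 single-mutant embryos were above all controls, whereas in Tbr1/2 dKO 2 embryos were above and replicate 2 was below. The difference was 0.40 in Tbr1 KO (standard error 0.09, limma adjusted p = 0.121, between 0.0166 and 0.411 over the alternatives), 0.27 in Tbr2 cKO (adjusted p = 0.416) and 0.18 in Tbr1/2 dKO (adjusted p = 0.514). None of these passed the test. Without Tbr1/2 dKO replicate 2, the difference in Tbr1 KO was called with adjusted p = 0.0166, and that in Tbr1/2 dKO was 0.30 and was not called (limma adjusted p = 0.074). Neurog2 itself, named here after its values were seen, differed from control by -0.08, 0.00 and 0.07 in the same order (adjusted p = 0.945, 0.995 and 0.793).

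Dcx, Dclk1, Cdk5, Cdk5r1 and Pafah1b1 were not called in any comparison. Dcx, the microtubule-associated protein of immature neurons, was 13.33 to 13.47 in control and 13.15 to 13.46 in the mutants, and its kinase-bearing relative Dclk1 was 11.65 to 11.93 and 11.62 to 11.92. Their differences in Tbr1/2 dKO were -0.12 (95% interval -0.31 to 0.06) and -0.06 (-0.26 to 0.15). Cdk5 was 11.44 to 11.65 in control and 11.42 to 11.68 in the mutants. Cdk5r1, which encodes the p35 activator, was 11.33 to 11.40 in control, 11.14 to 11.44 in Tbr1 KO, 11.07 and 11.23 in Tbr2 cKO, and 11.39, 10.92 and 11.37 in Tbr1/2 dKO, where replicate 2 alone was low. Pafah1b1 was 10.88 to 10.93 in control and 10.81 to 11.01 in the mutants, and its interval in Tbr1/2 dKO was -0.11 to 0.14.

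**Figure D2:**
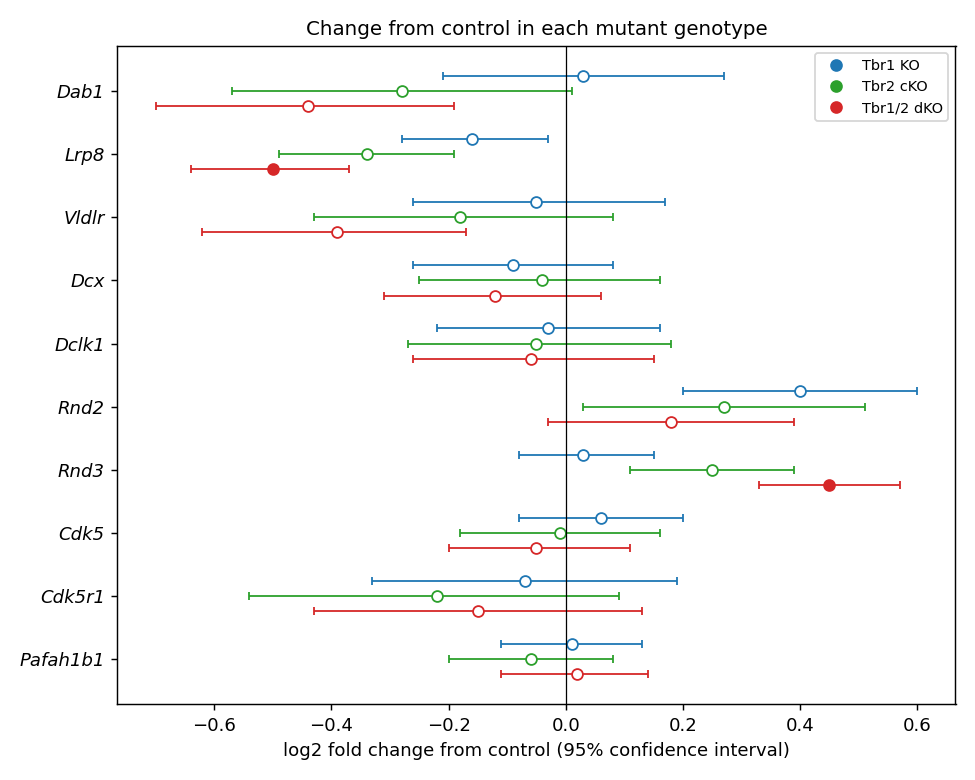
Log2 fold change from control (x axis) with its 95% confidence interval for each gene (y axis) and mutant genotype (colours); filled points passed the threshold on the adjusted p. Only Lrp8 (-0.50) and Rnd3 (0.45) in Tbr1/2 dKO are filled.

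Counting embryos without a test, 2 of 10 members were separated from control in Tbr1 KO (Rnd2 above and Lrp8 below), beside 7.49% of all genes (3.47% above and 4.02% below). For Tbr2 cKO, with its 2 embryos, 6 of 10 were separated (2 above and 4 below), beside 28.9% of all genes (10.9% above, and 18% or 2682 genes below). Rnd2 and Rnd3 were above, and Dab1, Lrp8, Cdk5r1 and Pafah1b1 below. The gap for Pafah1b1 was 0.00 within rounding (10.879 against 10.884). For Tbr1/2 dKO 4 of 10 were separated (Rnd3 above, and Dab1, Lrp8 and Vldlr below), beside 17.1% (8.58% and 8.53%). Between mutants, 4 of 10 were separated in Tbr1/2 dKO against Tbr1 KO (1 above and 3 below), beside 9.95% (4.58% and 5.37%). Against Tbr2 cKO they numbered 4 (2 above and 2 below), beside 22.4% (15.1% and 7.31%), and between the single mutants 2 (1 above and 1 below), beside 23.9% (9% or 1338 genes above, and 14.9% below). Pafah1b1 was 1 of the 2 above in Tbr1/2 dKO against Tbr2 cKO, by a gap of 0.02. The exact two-sided permutation test of single genes could not go below 0.0571 for Tbr1 KO, 0.2 for Tbr2 cKO or 0.1 for Tbr1/2 dKO. Lrp8 and Rnd2 had this smallest p of 0.0571 in Tbr1 KO by the exact test, and Dab1, Lrp8, Vldlr and Rnd3 that of 0.1 in Tbr1/2 dKO.

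Between mutants, Lrp8 (lower) and Rnd3 (higher) were the 2 members called in Tbr1/2 dKO against Tbr1 KO, where 1.24% of all genes were called (0.599% higher and 0.646% lower). With the replicate block only Rnd3 was called (0.43, limma adjusted p = 0.023). At an unadjusted p under 0.05 they were 5, beside 10.9% of all genes. Dab1 differed by -0.48 in that comparison (limma adjusted p = 0.0734, called under 4 of 23 alternative fits) and Vldlr by -0.35 (adjusted p = 0.155). In Tbr1/2 dKO against Tbr2 cKO, where 0.108% of all genes were called, 0 members were called and 2 had an unadjusted p under 0.05 in limma, beside 6.22% of all genes. In Tbr2 cKO against Tbr1 KO, where 0.585% were called, 0 members were called and 3 had an unadjusted p under 0.05, beside 12.5%. Between these single mutants, Rnd3 differed by 0.22 (adjusted p = 0.163), Lrp8 by -0.18 (adjusted p = 0.265) and Dab1 by -0.31 (adjusted p = 0.329).

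An interaction term asked whether the double mutant departed from the summed changes of both single mutants. Tbr1 values were below every control in both single mutants, so the sum counts a lower Tbr1 level on both sides. No member passed (0.0269% of all genes did), and 1 had an unadjusted p under 0.05 in limma, beside 3.43% of all genes. For Lrp8 the departure was 0.00 within rounding, with a 95% interval of -0.20 to 0.19, and for Rnd3 it was 0.17 (-0.01 to 0.35). Rnd2 had the lowest departure, -0.49 (-0.80 to -0.18, limma adjusted p = 0.999), with a sum of the single mutants above the value in Tbr1/2 dKO.

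**Figure D3:**
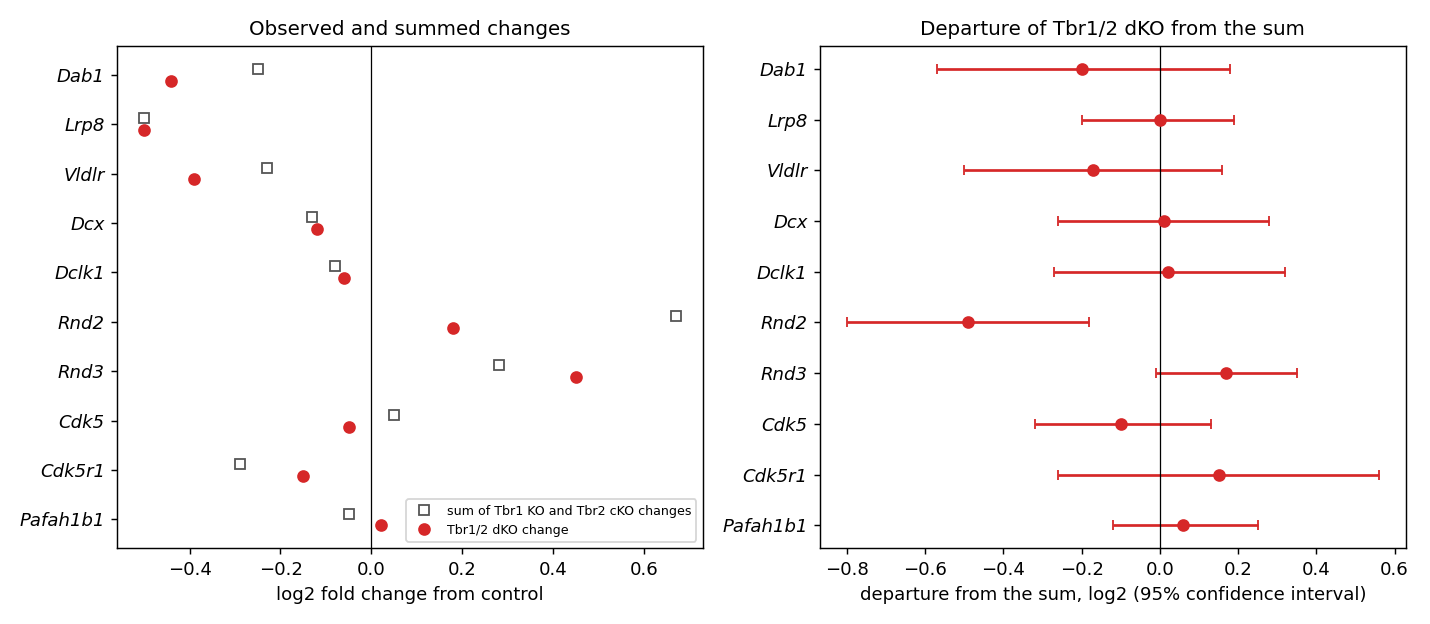
Left, log2 fold change from control in Tbr1/2 dKO (circles) and the sum of the changes in Tbr1 KO and Tbr2 cKO (squares) for each gene. Right, the departure of Tbr1/2 dKO from that sum with its 95% confidence interval; the interval of Rnd2 (-0.80 to -0.18) does not include 0, and no departure was called.

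Among 22 other genes of the reelin pathway, 2 fell in Tbr1 KO, 0 changed in Tbr2 cKO and 4 fell in Tbr1/2 dKO, with medians of -0.03, -0.04 and -0.03. Over all genes 0.619%, 0.653% and 3.11% were called in the same order, with medians of -0.01, -0.01 and 0.01. Reln, the ligand, was 11.70 to 11.74 in control, 10.29 to 10.60 in Tbr1 KO, 11.32 and 11.39 in Tbr2 cKO, and 9.71, 8.66 and 9.65 in Tbr1/2 dKO. Every mutant embryo was below every control, and replicate 2 of Tbr1/2 dKO was the lowest. Reln fell by 1.30 in Tbr1 KO (standard error 0.21, limma adjusted p = 0.0152) and fell by 2.39 in the double mutant (5.24-fold, standard error 0.22, adjusted p = 0.000147). The difference in Tbr2 cKO was -0.37 (adjusted p = 0.687). The call in Tbr1 KO was made under 18 of 23 alternative fits, and was lost with the replicate block (adjusted p = 0.0556), without any 1 of the 3 controls or without Tbr1 KO replicate 1 (adjusted p up to 0.0799). Dab2ip, a Ras GTPase-activating protein, fell by 0.41 in Tbr1 KO (adjusted p = 0.00447) and fell by 0.38 in Tbr1/2 dKO (adjusted p = 0.00439). Pik3r1, the regulatory subunit of PI3-kinase, fell by 0.66 in Tbr1/2 dKO (adjusted p = 0.0029), and Nck2, an adaptor of tyrosine kinases, fell by 0.29 (adjusted p = 0.0267, called under 16 of 23 alternative fits). The call of Nck2 was lost without any 1 control or without Tbr1/2 dKO replicate 2, with adjusted p up to 0.113.

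Of 12 measured dynein and Lis1 partners, 1 fell in Tbr1/2 dKO, beside 1.90% of all genes, and none was called in either single mutant. This was Dync1i1, the neuronal dynein intermediate chain, at -1.44 (standard error 0.31, limma adjusted p = 0.0307). Its values were 9.05 to 9.30 in control and 8.34, 7.01 and 7.81 in Tbr1/2 dKO, and the call was lost without Tbr1/2 dKO replicate 2 or 3 or any 1 control (adjusted p up to 0.118). Of 9 measured microtubule genes and 7 measured Cdk5 activators and substrates, 0 were called in any mutant by limma. At an unadjusted p under 0.05 in Tbr1/2 dKO they numbered 0 and 2, beside 12.3% of all genes.

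Of 16 other radial migration genes that were measured, 1 fell in Tbr2 cKO, where 0.653% of all genes were called. In Tbr1/2 dKO 5 fell and 1 rose, beside 1.90% and 1.20% of all genes. Their median there was -0.35, beside 0.01 over all genes. Unc5d, a netrin receptor of multipolar cells, fell by 1.99 in Tbr2 cKO (limma adjusted p = 8.84e-06) and fell by 2.67 in Tbr1/2 dKO (adjusted p = 1.15e-07). In Tbr1/2 dKO the transcription factor Sox5 fell by 1.21 (adjusted p = 0.00187), the CXCL12 scavenger receptor Ackr3 fell by 0.91 (adjusted p = 0.000486) and the transcriptional repressor Zbtb18 fell by 0.49 (adjusted p = 0.0307). The call of Zbtb18 was lost without any 1 control or without Tbr1/2 dKO replicate 3, with adjusted p up to 0.12. Zbtb18, Nck2 and Dync1i1 were also not called in Tbr1/2 dKO with the meningeal markers as a covariate, with a replicate block or on the compared genotypes alone.

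**Figure D4:**
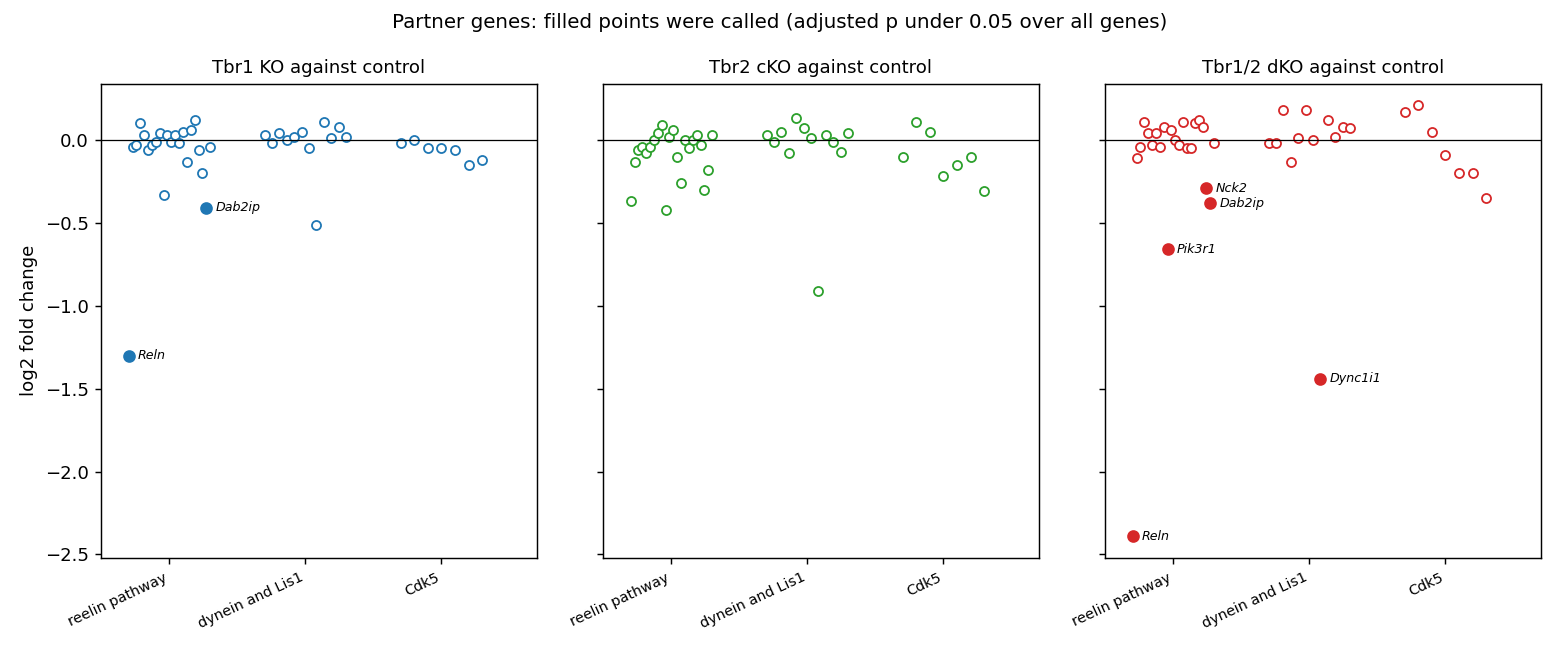
Log2 fold change from control (y axis) of the partner genes in 3 lists (x axis; 1 point per gene) in each mutant genotype; filled points, with names, passed the threshold on the adjusted p. For Tbr1/2 dKO, 4 reelin pathway genes and Dync1i1 are filled, all below 0.

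Cell type markers also differed from control. The mean level of 7 deep layer neuron markers was 11.05 to 11.13 in control and 10.25 to 10.43 in Tbr1/2 dKO. It was 10.44 to 10.66 in Tbr1 KO, and 10.65 and 10.81 in Tbr2 cKO. Of these 7, 4 fell and 0 rose in Tbr1/2 dKO by limma, beside 1.90% and 1.20% of all genes. In that genotype 6 of them were below control and 1 was above it (by 0.36, not called). The mean level of 11 radial glia markers was 11.63 to 11.72 in control and 11.85 to 11.87 in Tbr1/2 dKO. It was 11.64 to 11.82 in Tbr1 KO, and 11.78 and 11.79 in Tbr2 cKO. Of 8 intermediate progenitor markers, 4 rose and 1 fell in Tbr1/2 dKO (median 0.33), the list holding Eomes itself. Of 8 measured interneuron markers, 2 fell and all 8 were below control (median -0.42), and the mean of 5 upper layer markers was 10.61 to 10.74 in control and 10.17 to 10.27 in Tbr1/2 dKO. The mean of 12 meningeal markers was 7.59 to 7.93 in control, 8.74, 7.99 and 8.04 in Tbr1/2 dKO, and 8.74 and 7.87 in Tbr2 cKO, so that replicate 1 of both genotypes stood apart. Replicate 1 of Tbr2 cKO also had the highest mean of the 12 arrays for 12 cortical hem and choroid plexus markers, above replicate 2 (7.82) and the controls (7.31 to 8.08). Without it, Lrp8 in Tbr2 cKO differed from control by -0.37 (limma adjusted p = 0.286) and Rnd3 by 0.29 (adjusted p = 0.433). With the meningeal markers as a covariate, the change of Lrp8 in Tbr1/2 dKO was -0.53 (limma adjusted p = 0.00688) and that of Rnd3 was 0.46 (adjusted p = 0.0102). The part of the other marker lists in the changes of Lrp8 and Rnd3 was not tested. The deep layer list holds Tbr1 and Sox5, which are named above. Of 7 measured Cajal-Retzius markers, the list that holds Reln, 2 rose and 2 fell in Tbr1/2 dKO, and their mean was 8.81 to 9.09 in control and 8.93 to 9.11 in Tbr1/2 dKO.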

How the data were processed

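Neocortex RNA of single embryos was hybridised to Affymetrix Mouse Exon 1.0 ST arrays (12 arrays). The authors deposited log2 values that they had made by RMA with oligo; the sources used here do not state versions, the summary level or the annotation. Embryos were the replicates, so that precision depends on how many arrays there were. Genes were named from the platform annotation: of 23332 probesets, 14996 had 1 symbol, 1019 several and 7317 none, and the last 2 kinds were left out. For 135 genes with several probesets, that with the highest mean was used, which gave 14860 genes. Promoters were RefSeq windows of GRCm38.p6.

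One limma 3.58.1 model (R 4.3.3) with a mean per genotype was fitted to all 12 arrays (8 residual and 2.89 prior degrees of freedom), and p-values were adjusted by Benjamini-Hochberg over all genes. The code was tested on simulated data. Single genes were tested with an exact two-sided permutation test (scipy 1.17.1). The labels number embryos within each genotype. Deviations of same-numbered embryos from their genotype's mean correlated at 0.18, 0.19 and 0.38 between Tbr1 KO and Tbr1/2 dKO, all over 0.1, so the fit with a replicate block is given beside that comparison, the pairing being a hint from the data. By the Y-linked genes these same-numbered embryos also shared their sex, and the part of sex in the correlations was not tested. Between the other genotypes 3 of 12 pairs were over 0.1 (lowest -0.12), and those numbers were not taken as pairs. Control with Tbr1 KO held 2 of these, its 3 pairs lying at 0.03 to 0.20. Embryos of different numbers were not compared in this way. Alternatives comprised other probeset rules, a filter on low values, quantile normalization, centring, a trended and robust prior, array weights, the compared genotypes alone, a replicate block, Y-linked or meningeal covariates, other thresholds and leaving out each embryo. Named genes are the 10 members, Tbr1, Eomes and Reln, up to 4 called genes of each partner list with the largest change, and the 3 genes most correlated with each called member. Of the partner lists, 1 is not reported here. The members and lists were chosen with earlier results of these data known.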

Additional observations from a re-analysis of the deposited data

How the results depend on the processing

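Lrp8 and Rnd3 in Tbr1/2 dKO against control, and Rnd3 in Tbr1/2 dKO against Tbr1 KO, were called under all alternatives run. The number of members called in Tbr1 KO was 0 and became 1 (Rnd2) with array weights and on the compared genotypes alone, and 2 at an unadjusted p under 0.05. Over all 14860 genes, calls in Tbr1 KO went from 32 higher and 60 lower to 64 and 122 with array weights. On the compared genotypes alone they were 27 and 52. In Tbr2 cKO the number of members was 0 and became 1 (Lrp8) among genes above the median mean, with quantile normalization repeated, with a trended and robust prior and at an adjusted p under 0.1, 2 (Lrp8 and Rnd3) with array weights, and 3 at an unadjusted p under 0.05. Over all genes, Tbr2 cKO had 37 higher and 60 lower in the main fit, and 96 and 154 with array weights. A trended and robust prior gave 50 and 78, and quantile normalization 45 and 54. Among the 7430 genes above the median mean there were 43 and 61. In Tbr1/2 dKO the number of members was 2 and became 4 (with Dab1 and Vldlr) among genes above the median mean, at an adjusted p under 0.1 and at an unadjusted p under 0.05, and 3 with a trended and robust prior (with Dab1) or array weights (with Vldlr). Over all genes, Tbr1/2 dKO had 179 higher and 283 lower in the main fit, 205 and 321 with that prior and 262 and 341 with array weights. Among the 7430 genes above the median mean there were 166 and 263. In Tbr1/2 dKO against Tbr1 KO the number of members was 2 and became 1 (Rnd3) on the compared genotypes alone, 3 (with Dab1) with the mean of all probesets, among genes above the median mean, with a trended and robust prior and at an adjusted p under 0.1, and 5 at an unadjusted p under 0.05. Over all genes there were 89 higher and 96 lower in the main fit, and 36 and 30 on the compared genotypes alone. The mean of all probesets gave 89 and 97, and the trended and robust prior 114 and 123. Among the 7430 genes above the median mean there were 97 and 115. At an unadjusted p under 0.05 the members numbered 2 in Tbr1/2 dKO against Tbr2 cKO, 3 in Tbr2 cKO against Tbr1 KO and 1 for the departure from the sum. The causes were not tested. Leaving out each embryo in turn gave 0 to 1 member in Tbr1 KO, 0 to 1 in Tbr2 cKO, 2 to 3 in Tbr1/2 dKO, 1 to 3 in Tbr1/2 dKO against Tbr1 KO, and 0 in the other comparisons. Without an embryo of Tbr2 cKO 1 array is left in that genotype, which is then assumed to vary like the others. The departure has no value on the compared genotypes alone.

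With the replicate block, 1 member (Rnd3) was called in Tbr1/2 dKO against Tbr1 KO, where Lrp8 had an adjusted p of 0.0956, and the calls of Dab2ip and Reln in Tbr1 KO were lost, both at 0.0556. Over all genes the block gave 47 higher and 30 lower in Tbr1/2 dKO against Tbr1 KO, beside 89 and 96 in the main fit. The block changed no other call of a member. Under the block the sign turned for Vldlr (0.00), Dclk1 (0.01) and Pafah1b1 (-0.02) in Tbr1 KO, Dcx in Tbr2 cKO against Tbr1 KO (-0.03) and in the departure (-0.01), and Dclk1 in Tbr1/2 dKO against Tbr2 cKO (0.02).

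Over the members 69 of 1740 values changed sign, in 9 genes, all from reported sizes of at most 0.15 and none called on either side (the smallest unadjusted p was 0.27). Array weights turned Dab1 in Tbr1 KO (-0.06), the departure of Lrp8 (0.02), Dcx (0.04), Dclk1 (0.04), Cdk5r1 (0.07) and Pafah1b1 (-0.01) in Tbr1/2 dKO against Tbr1 KO, Dclk1 against Tbr2 cKO (0.04) and Dclk1 between the single mutants (0.00). Repeated quantile normalization turned Dcx between the single mutants (-0.00), the departure of Dclk1 (-0.01) and Cdk5 in Tbr2 cKO (0.01). Centring turned the departures of Dcx (-0.02) and Dclk1 (-0.01), Dclk1 between the single mutants (0.03) and Cdk5 in Tbr2 cKO (0.02). The Y-linked covariate turned the departures of Lrp8 (0.00) and Dcx (-0.00), and the meningeal covariate the departure of Lrp8 (0.01) and Cdk5 in Tbr2 cKO (0.00).

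Leaving out each embryo, sign changes fell within these ranges. Against control they were -0.02 to 0.11 for Dab1, -0.15 to 0.01 for Vldlr, -0.11 to 0.02 for Dclk1, -0.02 to 0.05 for Pafah1b1 and -0.23 to 0.01 for Eomes in Tbr1 KO, -0.05 to 0.05 for Cdk5 and -0.13 to 0.01 for Dclk1 in Tbr2 cKO, and -0.09 to 0.02 for Cdk5, -0.23 to 0.01 for Cdk5r1 and -0.14 to 0.02 for Dclk1 in Tbr1/2 dKO. In Tbr1/2 dKO against Tbr1 KO they were -0.15 to 0.08 for Cdk5r1, -0.07 to 0.05 for Dclk1, -0.09 to 0.02 for Dcx and -0.03 to 0.03 for Pafah1b1, and against Tbr2 cKO -0.01 to 0.23 for Cdk5r1, -0.05 to 0.06 for Dclk1 and -0.19 to 0.03 for Rnd2. Between the single mutants they were -0.06 to 0.03 for Dclk1 and -0.01 to 0.10 for Dcx, and for the departure -0.03 to 0.10 for Dclk1, -0.04 to 0.07 for Dcx and -0.05 to 0.05 for Lrp8. Of 80 mean levels, 4 moved by over 1 SD with centring. RMA values carry no signal over background, so no detection limit can be given.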
